A study of Mus musculus with 12 samples.

Results

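The genes described here are 75 of the 18194 genes measured on mouse expression arrays, and they encode the heat shock proteins and their partners. They were chosen by gene symbol: those that begin with Hsp followed by a family letter or digit, with Dnaj, or with Bag and a digit, without the endoplasmic reticulum (ER) chaperones Hspa5, Hsp90b1 and Dnajb9. The rule reads symbols alone. Each gene was read from its probe set with the highest mean over the 12 arrays, among probe sets that carry 1 symbol. The set holds 13 members of the Hsp70 family, Hsp90aa1, 7 small heat shock proteins, the 2 mitochondrial chaperonins, 6 BAG proteins, 43 J proteins and 2 Hsp-binding proteins. The last of the 75, Hspb11, bears a heat shock name but encodes a protein of intraflagellar transport. The set is not purely cytosolic: a list of 7 of its genes encodes proteins known in mitochondria (Hspa9, Hspd1, Hspe1, Dnaja3, Dnajc15, Dnajc11 and Dnajc30), and Hspa13, Dnajb11, Dnajb12, Dnajc1, Dnajc3 and Dnajc10 are among those that encode ER proteins. Dnajc19 and Dnajc19-ps, 2 more symbols under the rule, share their probe sets and were not used. Hsp90ab1, the constitutive cytosolic Hsp90, was not analysed here.

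The RNA came from A2C12, a lung tumour line taken from a C57BL/6 mouse that carried both a c-myc and a c-raf transgene, so that every array reports on 1 line. All cells were stained for 90 min with the DNA dye Hoechst at 5 µg/ml. The staining was done with and without reserpine, an inhibitor of dye efflux, at 50 µmol/l, and the labels do not say which of the sorted samples it reached. Viable cells were sorted into the side population (SP), whose cells retain little dye, and the remaining non-SP cells. The 4 groups were SP anti-EpCAM, non-SP anti-EpCAM, SP untreated and non-SP untreated, with 3 biological replicates each. Antibody-treated cells had received a monoclonal antibody against mouse EpCAM, an epithelial adhesion molecule, at 100 µg/ml for 48 h, and untreated cells had received no treatment that the labels name. The labels call the replicates biological but do not say whether they were separate cultures. The p-values measure the spread between these samples, and how much of it is technical is not known.

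Cytosolic Hsp70 proteins bind unfolded stretches of client proteins in cycles of ATP hydrolysis. J proteins bring clients and stimulate the hydrolysis, nucleotide exchange factors such as the BAG proteins and Hsp110 release ADP, and clients may then pass to Hsp90 or, in mitochondria, to the Hsp60 and Hsp10 chaperonin. Small heat shock proteins hold unfolding clients without ATP. When unfolded protein accumulates, the transcription factor HSF1 binds heat shock elements, which are inverted repeats of the unit GAA, and raises the transcription of the inducible members.

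Of the 75 genes, 61 had a promoter window in RefSeq (GRCm38.p6, 250 bases before to 50 after the start). Both strands were searched for a pair of units, GAANNTTC or TTCNNGAA, and for 3 units in a row, GAANNTTCNNGAA or TTCNNGAANNTTC, which contain the pair. The motif of 3 units was found for 4 of the 61 genes (6.56%), Dnajb6, Hspd1, Hspe1 and Hsph1, against 0.662% of 27025 genes. The pair was found for 17 of the 61 (27.9%), against 17.0% of genes. A match describes letters and is not a measured binding site. The stretch between the starts of Hspd1 and Hspe1, which encode Hsp60 and Hsp10 and are transcribed away from each other, is shown because both genes share its motif. It lies at chr1:55087933-55088147, plus strand, and the capitals mark 2 overlapping matches of 3 units. The upstream stretch of Dnajb6, a J protein known to hold back aggregation, lies at chr5:29735648-29735897, plus strand, with its motif in capitals.

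Hspd1 and Hspe1: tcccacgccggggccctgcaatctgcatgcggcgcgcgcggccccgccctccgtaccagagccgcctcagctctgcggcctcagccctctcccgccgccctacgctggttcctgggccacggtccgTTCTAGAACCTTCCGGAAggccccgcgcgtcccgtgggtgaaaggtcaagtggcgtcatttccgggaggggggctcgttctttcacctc

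Dnajb6: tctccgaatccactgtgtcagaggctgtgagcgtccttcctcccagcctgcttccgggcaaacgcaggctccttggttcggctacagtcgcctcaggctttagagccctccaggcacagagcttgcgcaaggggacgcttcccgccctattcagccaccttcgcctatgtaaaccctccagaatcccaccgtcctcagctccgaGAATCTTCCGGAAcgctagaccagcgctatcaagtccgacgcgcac

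The last 120 bases before the starts of Hspa1b and Hspa1a, the heat-inducible Hsp70 genes, are shown because these genes are near-identical. They were read from different probe sets, so a difference in signal between them is not a measured difference in expression. The stretches lie at chr17:34959239-34959358 and chr17:34972157-34972276, both on the minus strand. They had the same base at 119 of 120 positions, and at 247 of the whole 250 (98.8%), and the capitals mark a pair of units. The upstream stretch of Hspb1, the gene of the small heat shock protein Hsp27, lies at chr5:135887669-135887918, plus strand, and holds 2 pairs.

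Hspa1b: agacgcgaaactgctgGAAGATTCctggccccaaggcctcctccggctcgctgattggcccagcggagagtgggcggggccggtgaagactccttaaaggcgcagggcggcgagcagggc

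Hspa1a: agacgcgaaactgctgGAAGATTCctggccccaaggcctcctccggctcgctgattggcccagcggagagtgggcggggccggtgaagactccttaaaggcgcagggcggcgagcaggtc

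Hspb1: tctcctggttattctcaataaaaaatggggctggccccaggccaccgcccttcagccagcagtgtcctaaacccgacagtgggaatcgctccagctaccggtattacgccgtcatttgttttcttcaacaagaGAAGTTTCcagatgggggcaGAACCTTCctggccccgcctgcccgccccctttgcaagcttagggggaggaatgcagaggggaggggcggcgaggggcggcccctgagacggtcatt

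Array medians ran from 5.72 to 6.06 on the log2 scale. The signal of the actin control was higher at its 3′ than its 5′ probe sets by 1.03 on SP anti-EpCAM replicate 2, by 0.895 on non-SP anti-EpCAM replicate 2 and by 0.733 on SP untreated replicate 3, and by at most 0.40 on the other 9 arrays. The first 2 of these arrays also had the lowest mean correlations with the other arrays, 0.985 and 0.982. All 4 epithelial markers looked up, Epcam, Cdh1, Krt8 and Krt18, lay above the median probe set level of 6.27, as did 2 of 5 markers of alveolar type II cells, and Sftpc, their defining surfactant gene, averaged 5.64. Of 5 fibroblast markers 4 lay above it, with Col1a1 at 11.5, against 2 of 5 macrophage markers and 1 of 3 endothelial markers. The 2 macrophage markers above that level were Csf1r (9.98) and Cd68 (7.33), and the leucocyte gene Ptprc was low, at 3.42. The summed log2 level of the fibroblast markers ran from 13.07 to 13.74 in SP anti-EpCAM, 13.32 to 13.72 in non-SP anti-EpCAM, 13.12 to 13.82 in SP untreated and 13.28 to 13.88 in non-SP untreated cells. Their part in the results below was not tested.

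The chaperone genes were first read for level and spread. The 12-array mean lay above the median probe set level for 62 of the 75 genes (58.0% of all genes) and above 10 for 27 (15.7% of all genes), where each gene is read from its own probe set and levels of different genes are not compared. The 13 below it included Dnajb3, Dnajb7 and Dnajb8, J proteins best known from testis, and the small heat shock proteins Hspb3, Hspb7 and Hspb9. The median SD over the 12 arrays was 0.21 for the 75 genes and 0.26 for all genes, and the 12-array range stayed under 1 (2-fold) for 62 of the 75 (82.7%), against 66.5% of all genes. The genes were not matched by level, and the part of level in this smaller spread was not tested. The steadiest members were Dnajb12, a J protein of the ER membrane (SD 0.08), Bag1, a nucleotide exchange factor of Hsp70 (0.09), and Dnajb11, an ER luminal J protein (0.09).

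Among the Hsp70 proteins, Hspa8, the constitutive cytosolic Hsc70, had signals of 14.02, 13.55 and 13.86 in SP anti-EpCAM, 14.02, 13.43 and 13.96 in non-SP anti-EpCAM, 13.95, 13.86 and 13.93 in SP untreated, and 14.00, 13.82 and 13.95 in non-SP untreated cells, in the order of replicates 1, 2 and 3 that is kept throughout. Replicate 2 was the lowest in each group, and all 4 groups overlapped. Hspa1a, an inducible Hsp70, varied most of the 75, with a 12-array SD of 0.59 and a range of 1.65. It had signals of 8.48, 8.30 and 6.88 in SP anti-EpCAM, 8.29, 7.17 and 7.13 in non-SP anti-EpCAM, 7.50, 8.38 and 7.92 in SP untreated, and 7.78, 8.53 and 8.35 in non-SP untreated cells. Low arrays occurred in both fractions of the antibody-treated cells, and the groups overlapped. Hspa1b, its close copy, had signals of 12.80, 12.73 and 12.48 in SP anti-EpCAM, 12.64, 11.74 and 12.65 in non-SP anti-EpCAM, 12.37, 12.62 and 12.70 in SP untreated, and 12.62, 12.70 and 12.74 in non-SP untreated cells. Apart from the 1 array at 11.74, the values of Hspa1b lay within 12.37 to 12.80. Because the transcripts are so alike, probe sets named for either gene may take up signal from both.

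Hsp90aa1, the stress-inducible cytosolic Hsp90, had signals of 13.35, 13.17 and 12.93 in SP anti-EpCAM, 13.19, 12.63 and 13.01 in non-SP anti-EpCAM, 13.25, 12.93 and 13.36 in SP untreated, and 13.25, 12.98 and 13.23 in non-SP untreated cells. Non-SP anti-EpCAM replicate 2 was again the lowest array. Hspb1 had signals of 12.64, 11.66 and 12.56 in SP anti-EpCAM, 12.82, 11.98 and 12.42 in non-SP anti-EpCAM, 12.36, 12.33 and 12.33 in SP untreated, and 12.37, 12.44 and 12.68 in non-SP untreated cells. Its highest and lowest values both occurred among the antibody-treated arrays.

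**Figure D1:**
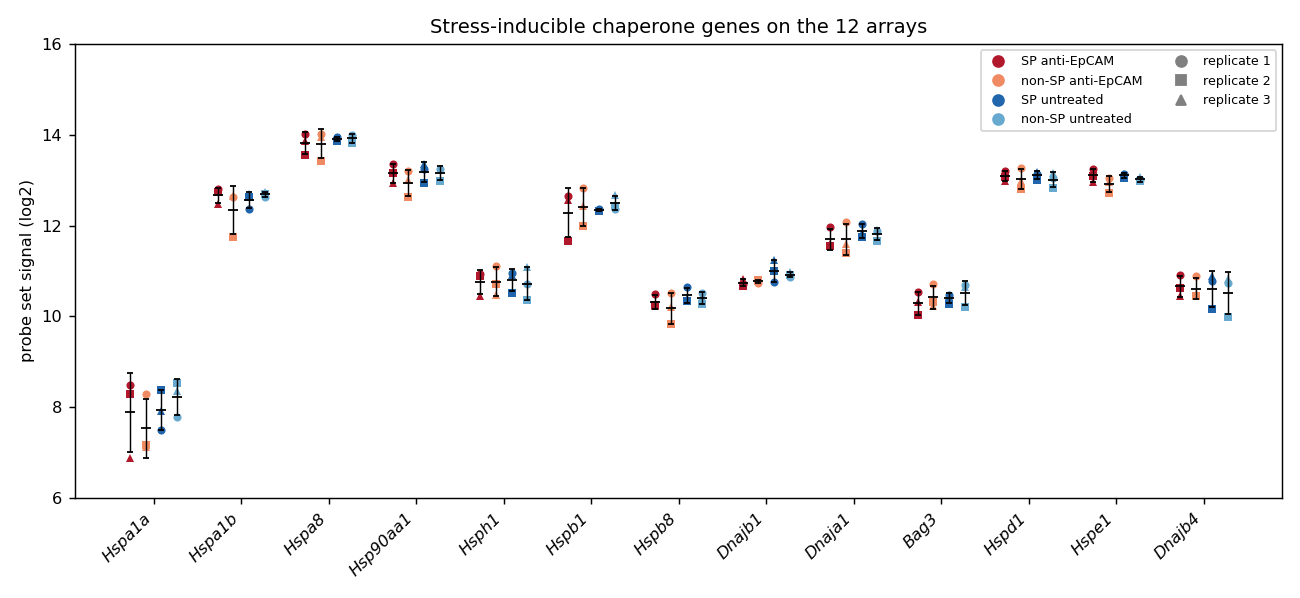
Probe set signal (log2) of 13 stress-inducible chaperone genes on the 12 arrays. Colours stand for the 4 groups, symbols for replicates 1, 2 and 3, and the bars for the group mean ± SD (n = 3). The 4 groups overlap for Hspa1a and Hspa8, and the spread is widest for Hspa1a. For Hspb1 the untreated SP values lie below the untreated non-SP values without overlap.

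Of the other genes with a high SD, Hspb6, the small heat shock protein Hsp20 known from muscle, ranged over 1.54. Its signals were 8.87, 7.57 and 9.03 in SP anti-EpCAM, 8.71, 7.83 and 9.12 in non-SP anti-EpCAM, 8.44, 8.45 and 8.55 in SP untreated, and 8.84, 8.84 and 8.40 in non-SP untreated cells. Dnajc9, a J protein that binds histones, had signals of 11.55, 10.44 and 11.69 in SP anti-EpCAM, 11.48, 10.87 and 11.68 in non-SP anti-EpCAM, 11.22, 11.10 and 11.51 in SP untreated, and 11.56, 11.23 and 11.47 in non-SP untreated cells. Both genes were lowest on the arrays of replicate 2 of the antibody-treated cells, which are those with the largest 3′ excess of the actin control, and its part in the values was not tested. Dnajc1, an ER J protein, had signals of 8.82, 8.59 and 8.15 in SP anti-EpCAM, 8.97, 8.62 and 8.21 in non-SP anti-EpCAM, 8.88, 7.93 and 8.68 in SP untreated, and 8.65, 8.01 and 8.88 in non-SP untreated cells. The fractions of 1 replicate lay close together for Dnajc1 while the replicates lay apart.

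That pattern was general. SP and non-SP arrays of the same replicate number and treatment deviated together from their group means over all genes, with correlations of 0.562 to 0.751 in the 3 antibody-treated and 0.550 to 0.844 in the 3 untreated pairs. For the 75 genes the median SD within such a pair was 0.12 and that between pair means 0.20. The SD between pairs was the larger for 60 of the 75 (80.0%), against 78.9% of all genes.

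The stress-inducible genes were then read together: Hspa1a, Hspa1b, Hspa8, Hsp90aa1, Hsph1, Hspb1, Hspb8, Dnajb1, Dnaja1, Bag3, Hspd1, Hspe1 and Dnajb4. The number of these 13 genes above their own 12-array mean was 12, 7 and 1 in SP anti-EpCAM, 12, 0 and 3 in non-SP anti-EpCAM, 9, 5 and 12 in SP untreated, and 7, 4 and 13 in non-SP untreated cells. The groups overlapped, and each held arrays with many and arrays with few such genes. Both fractions of a pair tended to the same side: both arrays of pair 1 of the antibody-treated cells had 12 genes above, and both arrays of untreated pair 3 had 12 or 13. The share of all genes above their own means was 50.2% and 53.0% on the SP and non-SP arrays of antibody-treated pair 1, 66.2% and 66.8% on those of untreated pair 3, and 72.4% and 76.1% on those of untreated pair 1, whose counts were 9 and 7. On arrays with low counts this share was low as well. It was 36.5% and 38.6% on SP anti-EpCAM replicates 2 and 3, and 35.1% on non-SP anti-EpCAM replicate 3. On the SP and non-SP arrays of untreated pair 2 it was 41.3% and 42.0%. With each array centred on its median, the counts were 12, 8 and 7 in SP anti-EpCAM, 12, 0 and 9 in non-SP anti-EpCAM, 2, 7 and 7 in SP untreated, and 2, 4 and 8 in non-SP untreated cells. The arrays of antibody-treated pair 1 and non-SP anti-EpCAM replicate 2 kept their counts, at 12, 12 and 0 of 13. Of all 75 members 65, 53 and 24 lay above their own means on these 3 centred arrays. The share of all genes was not counted on centred arrays, so these counts cannot be read as particular to chaperones. Before centring 45.8% of all genes did so on non-SP anti-EpCAM replicate 2.

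**Figure D2:**
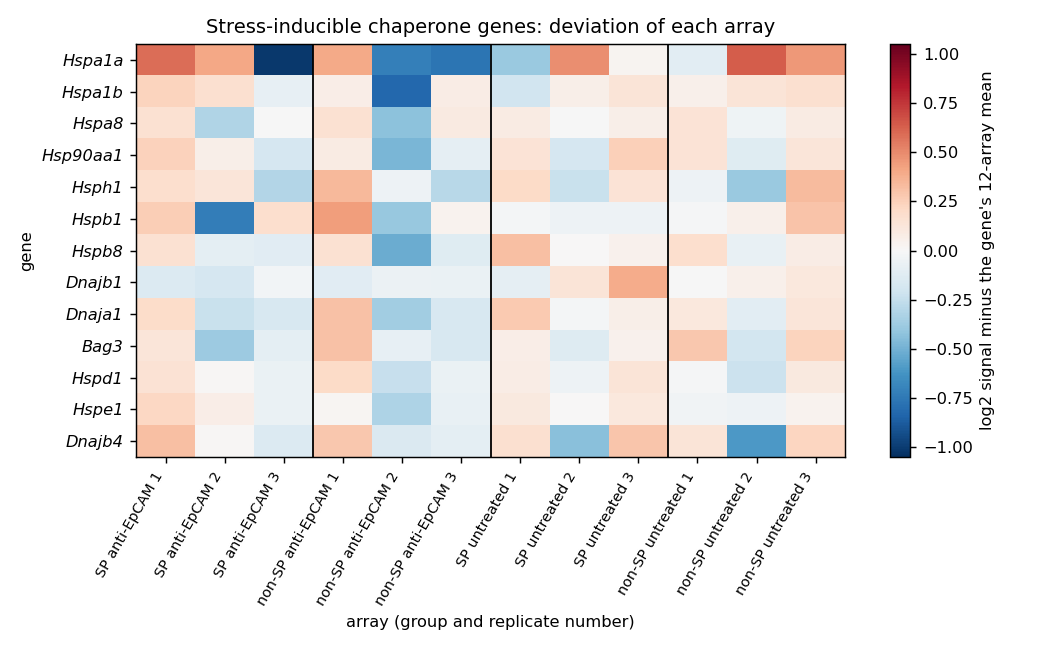
Deviation of each array (columns, by group and replicate) from a gene's own 12-array mean, in log2 units by colour, for the 13 stress-inducible genes (rows). Red is above and blue below the mean. SP anti-EpCAM replicate 1 and non-SP anti-EpCAM replicate 1 each have 12 genes above their means, and non-SP anti-EpCAM replicate 2 has none.

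The study compared SP with non-SP cells, since the SP fraction of a tumour line is studied as a source of stem-like cells. In limma's test across 18194 genes, no member differed between the fractions at a Benjamini-Hochberg adjusted p under 0.05, in antibody-treated or in untreated cells. Nor did any other gene pass (0% called). At an unadjusted p under 0.05 no member was found in either case, against 0.698% of all genes in antibody-treated and 0.022% in untreated cells. With the replicate number as a block, no member in antibody-treated cells had an unadjusted p under 0.05, against 7.21% of all genes. In untreated cells 4 had one (Dnajb5 lower, Hspa4l, Dnaja3 and Hspa9 higher in SP), against 1.68% of all genes, and no gene passed the adjusted threshold with the block. The median difference of the 75 genes was 0.03 log2 units in antibody-treated cells (all genes -0.03) and 0.02 in untreated cells (all genes 0.01). Differences above 0 were found for 44 members in antibody-treated cells (42.3% of all genes) and 41 in untreated cells (53.7% of all genes). The 95% interval lay within 2-fold for 74 members in antibody-treated (93.4% of all genes) and 73 in untreated cells (96.5%). A different number of cells with a transcript and a different amount of it per cell cannot be told apart in such bulk samples.

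The mean of the 6 within-pair differences gave the narrowest intervals, with a median reach of 0.17 log2 units to either side. The 75 genes had differences from -0.21 (Dnajb7) to 0.18 (Dnajc3) with a median of 0.03, against -0.01 for all genes. All 75 intervals lay within 2-fold, as did 99.9% of those of all genes. Dnajb7, with a mean signal of only 4.05, was higher in SP in 1 of 6 pairs. Of the 75 genes, 45 had a difference above 0, against 44.2% of all genes. An unadjusted p under 0.05 in limma was found for 2, Dnaja3 and Hspa4l, both higher in SP, against 2.13% of all genes in either direction and 0.802% with higher values, and the lowest adjusted p among them was 0.95. Higher values in SP in 6 of 6 pairs were found for 3 members, Dnaja3, Dnajc13 and Hspe1, where 0.682% of all genes had them, and lower values in 6 of 6 pairs for 1, Hspbp1, where 0.786% of all genes had them.

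Of the 7 listed mitochondrial members 5 had a difference above 0, with a median of 0.08 (44.2% of all genes). Dnaja3, a mitochondrial J protein known as Tid1, had signals of 9.83, 10.33 and 9.69 in SP anti-EpCAM, 9.70, 10.20 and 9.64 in non-SP anti-EpCAM, 10.01, 9.90 and 10.18 in SP untreated, and 9.77, 9.79 and 9.88 in non-SP untreated cells. SP was the higher fraction in every pair, by 0.05 to 0.30, and the untreated groups did not overlap. The mean difference of Dnaja3 was 0.16 ± 0.06 (SE, 95% interval 0.02 to 0.31, limma adjusted p = 0.95). Its other probe sets gave 0.20 and -0.10.

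Hspe1, the Hsp10 gene, had signals of 13.25, 13.10 and 12.96 in SP anti-EpCAM, 13.05, 12.71 and 12.96 in non-SP anti-EpCAM, 13.13, 13.04 and 13.14 in SP untreated, and 13.00, 12.98 and 13.07 in non-SP untreated cells. The difference was 0.14 ± 0.07 (SE), from 0.0046 to 0.39 in the single pairs, and -0.02 on its other probe set. Without antibody-treated pair 2 the mean of Hspe1 was 0.09. Hspd1, which shares the stretch printed above with Hspe1, had signals of 13.21, 13.07 and 12.99 in SP anti-EpCAM, 13.26, 12.81 and 12.99 in non-SP anti-EpCAM, 13.13, 13.01 and 13.19 in SP untreated, and 13.04, 12.83 and 13.16 in non-SP untreated cells, and differed by 0.08 ± 0.07 (SE), or 0.04 without that pair. Hspa9, the mitochondrial Hsp70, had signals of 11.92, 12.36 and 11.67 in SP anti-EpCAM, 12.05, 12.07 and 11.71 in non-SP anti-EpCAM, 12.16, 11.996 and 12.12 in SP untreated, and 11.83, 11.80 and 11.90 in non-SP untreated cells. Its untreated groups did not overlap, SP was lower in 2 of the 3 antibody-treated pairs, and the 6-pair mean was 0.15 ± 0.08 (SE), or 0.08 without antibody-treated pair 2.

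Of the 13 Hsp70 family genes 9 had a 6-pair mean above 0 (44.2% of all genes), with a median of 0.04. Hspa4l, an Hsp110-type exchange factor, had signals of 7.55, 7.81 and 7.56 in SP anti-EpCAM, 7.64, 7.73 and 7.42 in non-SP anti-EpCAM, 7.88, 8.05 and 7.92 in SP untreated, and 7.64, 7.80 and 7.60 in non-SP untreated cells. SP exceeded non-SP in 5 of 6 pairs and the untreated groups did not overlap. The difference was 0.16 ± 0.06 (SE, 95% interval 0.01 to 0.31, limma adjusted p = 0.95), and all 5 probe sets of Hspa4l gave a value above 0, from 0.14 to 0.33. Hspa8 differed by -0.0034 ± 0.06 (SE, 95% interval -0.15 to 0.14), Hsph1, the inducible Hsp110, by 0.04, and Hsp90aa1 by 0.11. The difference of Hsp90aa1 was 0.54 in antibody-treated pair 2 and lay between -0.08 and 0.16 in the other 5 pairs, with a mean of 0.03 without that pair, and Hsph1 had -0.0082 without it.

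For Hspa1b 1 pair set the value. Its differences were 0.16, 0.99 and -0.16 in antibody-treated and -0.25, -0.07 and -0.04 in untreated pairs, and for Hspa1a they were 0.19, 1.12 and -0.25 in antibody-treated and -0.28, -0.15 and -0.42 in untreated pairs. The second antibody-treated pair stands alone in both genes, and it is the pair in which both arrays had a large 3′ excess of the actin control. The antibody-treated difference of Hspa1b, 0.33 ± 0.22 (SE), was -0.00315 without both arrays of that pair. Its other probe sets gave 0.12 and 0.18 for the same comparison.

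Of the 7 small heat shock proteins 1 had a 6-pair mean above 0 (44.2% of all genes), with a median of -0.09. None had an unadjusted p under 0.05 in limma, and a difference from the other chaperones was not tested. The 1 above 0 was Hspb8, at 0.10, and its mean was 0.03 without antibody-treated pair 2. Hspb1 differed by -0.14 ± 0.08 (SE), or -0.09 without the same pair, its untreated groups did not overlap, and SP was lower in 5 of 6 pairs. Bag3, the BAG protein that works with small heat shock proteins in autophagy, differed by -0.12 ± 0.08 (SE), while Bag1 differed by 0.0038. Hspbp1, an exchange factor of Hsp70, had signals of 9.42, 8.57 and 9.24 in SP anti-EpCAM, 9.45, 9.01 and 9.29 in non-SP anti-EpCAM, 9.48, 9.24 and 8.99 in SP untreated, and 9.55, 9.28 and 9.14 in non-SP untreated cells. Its differences ran from -0.45 to -0.02 with a mean of -0.13 ± 0.08 (SE), and the largest, in antibody-treated pair 2, stood apart from the other 5. Without that pair the mean of Hspbp1 was -0.06.

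**Figure D3:**
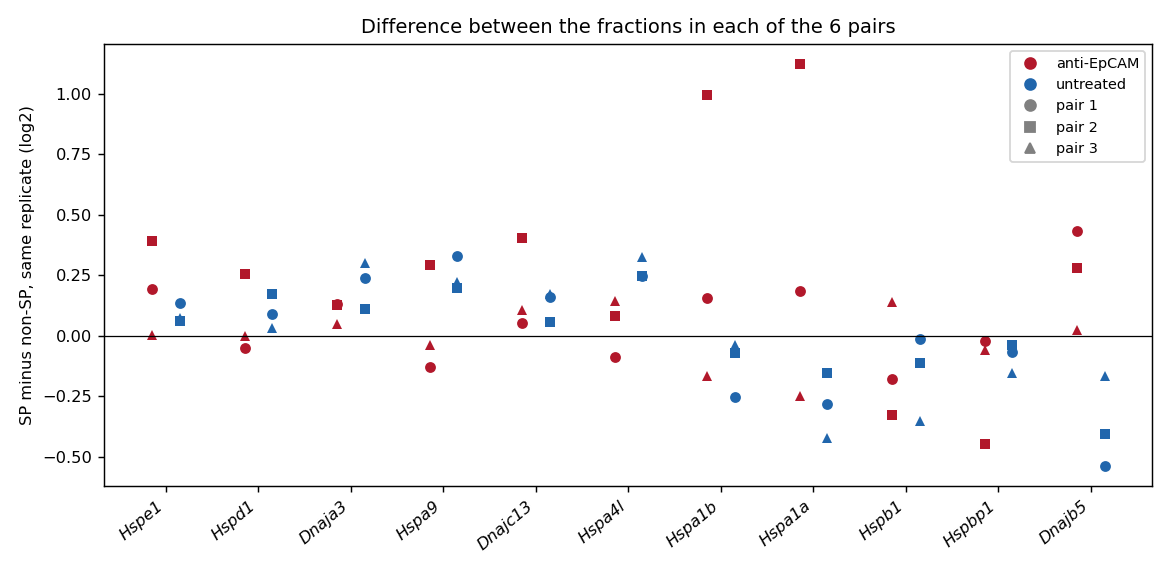
Difference in log2 signal between the SP and the non-SP array of 1 replicate number and treatment, for 11 chaperone genes. Each point is 1 pair, red for antibody-treated and blue for untreated cells, with the symbol giving the pair number. Dnaja3, Dnajc13 and Hspe1 lie above 0 in 6 of 6 pairs and Hspbp1 below 0 in 6 of 6. Hspa1a and Hspa1b reach 1.12 and 0.99 in antibody-treated pair 2 alone.

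J proteins made up most of the set, and 28 of 43 had a 6-pair mean above 0 (44.2% of all genes), with a median of 0.04. All 4 of class A, which carry the full domain order of bacterial DnaJ, lay above 0, as did 8 of 12 in class B and 16 of 27 in class C, which share only the J domain. Dnajc13, an endosomal J protein known as RME-8, had signals of 9.94, 10.11 and 9.92 in SP anti-EpCAM, 9.89, 9.71 and 9.82 in non-SP anti-EpCAM, 9.95, 10.00 and 10.00 in SP untreated, and 9.79, 9.94 and 9.82 in non-SP untreated cells. Its SP values lay above the non-SP values without overlap in both treatments. In untreated cells the lowest SP value was 9.952 and the highest non-SP value 9.941. The share of all genes without overlap in both treatments was not counted. The difference of Dnajc13 was 0.16 ± 0.07 (SE, 95% interval -0.0044 to 0.32, limma adjusted p = 0.95), with 0.11 without antibody-treated pair 2 and -0.16 on its other probe set. In antibody-treated cells 1 member lay higher in SP without overlap, Dnajc13 (0.572% of all genes), and 2 lower, Dnajc22 and Dnajc27 (1.78% of all genes). In untreated cells 4 lay higher, Dnaja3, Dnajc13, Hspa4l and Hspa9 (5.33%), against 1.24% of all genes, and 1 lower, Hspb1, against 1.13%. The inducible J proteins Dnajb1 and Dnaja1 had 6-pair means of 0.03 and 0.04.

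Cells given the anti-EpCAM antibody were compared with untreated cells within each fraction. No member, and no other gene, passed an adjusted p under 0.05 in limma in SP or in non-SP cells (0% called). An unadjusted p under 0.05 was found for 2 members in SP cells (Dnajc5b and Dnaja4, 4.59% of all genes) and 3 in non-SP cells (Dnajb5, Dnajc12 and Hspb11, 3.22% of all genes), each with lower values in antibody-treated cells. Among all genes 4.48% in SP and 2.7% in non-SP cells had such a p with lower values. Over pair means 1 member had it, Dnajc5b, lower in antibody-treated cells, against 2.53% of all genes and 2.36% with lower values. Most genes on the arrays had slightly lower values with antibody, and the array medians averaged 5.77 in antibody-treated and 5.94 in untreated cells. The median over all genes was -0.12 in SP, -0.10 in non-SP and -0.11 over pair means, and the 75 genes had medians of -0.09 in SP, -0.10 in non-SP and -0.10 over pair means. Differences above 0 were found for 15 members in SP (21.6% of all genes), 18 in non-SP (29.1%) and 11 over pair means (20.6%). By role, those 11 were 2 of 13 Hsp70 family genes, 1 of 6 BAG genes and 8 of 43 J proteins, and none of the 7 small heat shock proteins, whose values ran from -0.30 to -0.05. Centring each array on its median added 0.17 to every difference over pair means and turned the median of all genes to 0.06, so members are also given below relative to the median of all genes, a distance that centring leaves as it is. These comparisons use the same 12 arrays as those of the fractions.

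Beyond that shift, Dnajc5b, a relative of the cysteine string protein of synaptic vesicles, had signals of 5.26, 5.05 and 5.40 in SP anti-EpCAM, 5.45, 5.66 and 5.33 in non-SP anti-EpCAM, 5.96, 5.63 and 5.77 in SP untreated, and 5.82, 5.41 and 5.91 in non-SP untreated cells. These lie below the median probe set level, and the SP groups did not overlap. Over pair means it differed by -0.39 ± 0.17 (SE, 95% interval -0.77 to -0.02, limma adjusted p = 0.991), which is -0.28 relative to the median of all genes and -0.23 with centred arrays. Dnaja4, a class A J protein, had signals of 7.63, 7.45 and 7.40 in SP anti-EpCAM, 7.52, 7.42 and 7.39 in non-SP anti-EpCAM, 7.79, 7.82 and 7.98 in SP untreated, and 7.89, 7.57 and 7.61 in non-SP untreated cells. On the arrays as deposited, the antibody-treated values lay below the untreated ones without overlap in both fractions. With centred arrays the groups overlapped in both fractions. The share of all genes without overlap in both fractions was not counted. The difference of Dnaja4 was -0.31 ± 0.15 (SE), -0.20 relative to all genes and -0.14 with centred arrays, with -0.41 and -0.14 on its other probe sets. Hspbap1, a protein named for its binding to Hsp27, differed by -0.39 ± 0.19 (SE), -0.28 relative to all genes and -0.22 with centred arrays, and its other 3 probe sets gave -0.32 to -0.61.

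Dnajb1, the major inducible cytosolic J protein, had signals of 10.71, 10.68 and 10.83 in SP anti-EpCAM, 10.74, 10.80 and 10.78 in non-SP anti-EpCAM, 10.76, 10.99 and 11.25 in SP untreated, and 10.86, 10.91 and 10.97 in non-SP untreated cells. The non-SP groups and the pair means did not overlap, and the difference was -0.20 ± 0.16 (SE), -0.09 relative to all genes and -0.03 with centred arrays. Dnajc12, a J protein that partners aromatic amino acid hydroxylases, had signals of 8.87, 8.20 and 8.79 in SP anti-EpCAM, 8.40, 7.72 and 8.85 in non-SP anti-EpCAM, 8.45, 8.83 and 9.12 in SP untreated, and 8.99, 8.82 and 9.03 in non-SP untreated cells. Both antibody-treated arrays of replicate 2 were the lowest, and the antibody-treated and untreated groups overlapped in both fractions. Hspb11 had signals of 9.53, 9.43 and 9.33 in SP anti-EpCAM, 9.25, 8.85 and 9.35 in non-SP anti-EpCAM, 9.42, 9.41 and 9.58 in SP untreated, and 9.69, 9.43 and 9.49 in non-SP untreated cells, and its non-SP groups did not overlap.

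The remaining inducible chaperones gave differences over pair means of -0.37 ± 0.33 (SE) for Hspa1a, -0.18 for Hspb8, -0.14 for Dnaja1, -0.12 for Hspa1b, -0.12 for Hsp90aa1, -0.11 for Hspa8, -0.10 for Bag3, -0.07 for Hspb1, -0.06 for Hspe1, -0.0059 for Hspd1, 0.0005 for Hsph1 and 0.07 for Dnajb4. Relative to the median of all genes these were -0.26 for Hspa1a, -0.07 for Hspb8, -0.03 for Dnaja1, -0.01 for Hspa1b, -0.01 for Hsp90aa1, 0.0025 for Hspa8, 0.01 for Bag3, 0.04 for Hspb1, 0.06 for Hspe1, 0.11 for Hspd1, 0.11 for Hsph1 and 0.19 for Dnajb4. With centred arrays the values of Hspa1b, Hspa8, Hsp90aa1, Hspb1, Dnaja1, Bag3, Hspd1 and Hspe1 lay above 0, between 0.02 and 0.16. Those of Hsph1 and Dnajb4 were higher than these, and those of Hspa1a, Hspb8 and Dnajb1 lay below 0. Of the few higher values, Dnajc6, the clathrin-uncoating protein auxilin, had signals of 4.39, 4.42 and 4.54 in SP anti-EpCAM, 4.81, 4.46 and 4.45 in non-SP anti-EpCAM, 4.08, 4.04 and 4.75 in SP untreated, and 4.08, 3.94 and 4.43 in non-SP untreated cells. All lie under the median probe set level, and its second probe set gave -0.02 where the first gave 0.29 ± 0.19 (SE).

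Antibody-treated values lay below untreated ones without overlap in 3 members in SP cells (4.00%; Dnaja4, Dnajc5b and Hspa4l), against 8.04% of all genes. In non-SP cells there were 8 (10.7%; Dnaja4, Dnajb1, Dnajb5, Dnajc14, Dnajc18, Dnajc28, Hspb11 and Hspbap1), against 6.62% of all genes, and over pair means 5 (6.67%; Dnaja4, Dnajb1, Dnajc30, Dnajc5b and Hspb11), against 6.95%. Over pair means the share of the members was near that of all genes. Higher values without overlap were found for no member in SP cells (0.434% of all genes), 1 in non-SP cells, Dnajc6 (1.19%), and none over pair means (0.616%). The 95% interval lay within 2-fold for 75 of 75 members in SP (90.5% of all genes), 73 in non-SP (90.3%) and 74 over pair means (95.9%).

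**Figure D4:**
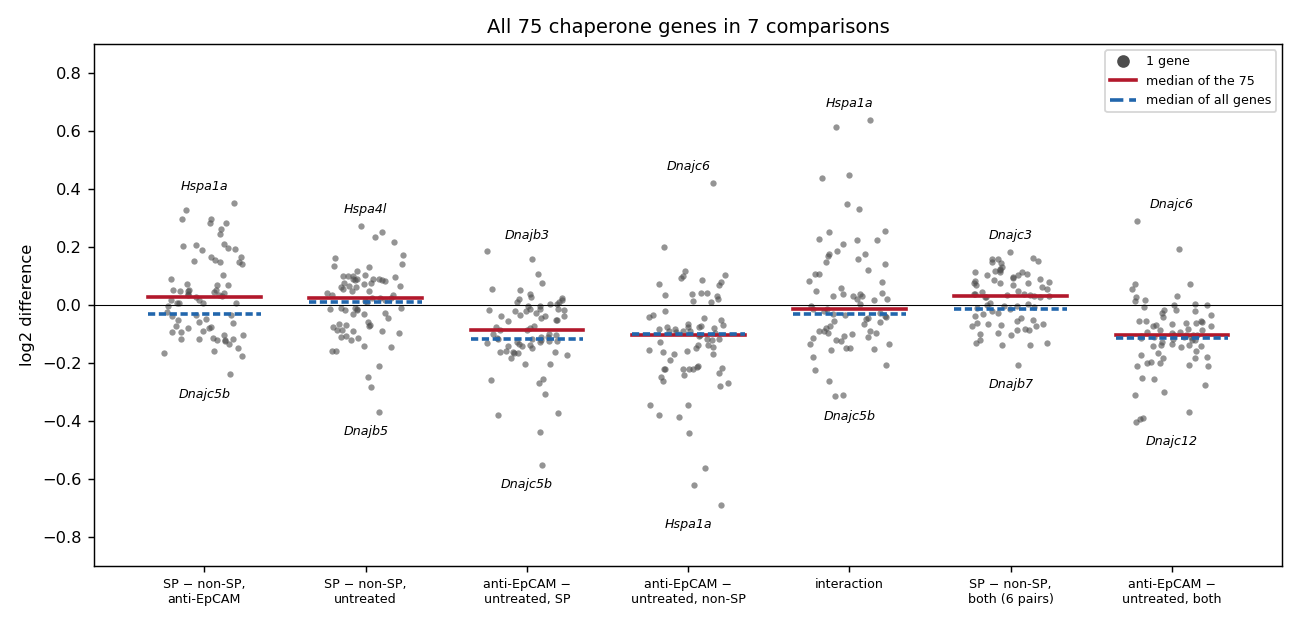
Log2 differences of all 75 chaperone genes in the 7 comparisons, with 1 point a gene, a red line for their median and a dashed blue line for the median of all genes. The genes farthest out are named. Both medians lie near 0 between the fractions and near -0.10 between antibody-treated and untreated cells.

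The interaction asks whether the difference between the fractions was another in antibody-treated than in untreated cells. No member and no other gene passed the adjusted threshold in limma (0% called). An unadjusted p under 0.05 was found for 1 member, Dnajb5, against 0.236% of all genes, or 0.0385% with higher values (with the replicate number as a block, 1 member, again Dnajb5, against 5.51%). The interaction lay above 0 for 36 members (43.6% of all genes), and its 95% interval within 2-fold for 66 (71.9%). Dnajb5, a class B J protein close to Dnajb1, had signals of 6.48, 6.25 and 6.38 in SP anti-EpCAM, 6.05, 5.97 and 6.36 in non-SP anti-EpCAM, 6.22, 6.14 and 6.60 in SP untreated, and 6.75, 6.54 and 6.77 in non-SP untreated cells. The untreated non-SP cells held the higher values, and the SP values of both treatments overlapped. The fractions differed by 0.25 ± 0.17 in antibody-treated and -0.37 ± 0.17 in untreated cells (SE), and the interaction was 0.61 ± 0.24 (SE, limma unadjusted p = 0.0255, adjusted p = 1.00). The other 2 probe sets of Dnajb5 gave interactions of -0.18 and -0.17, so the direction depended on the probe set.

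Other genes of the pathway were read from the same arrays. Of 22 heat shock factors and co-chaperones 18 were measured, and none passed the adjusted threshold in any comparison. Between the fractions their median over 6 pairs was -0.0020 with 9 of 18 above 0 (all genes -0.01 and 44.2%). The highest t was that of Chordc1, a partner of Hsp90 (0.15 ± 0.07, SE), and the lowest that of Stub1, the ubiquitin ligase CHIP (-0.09). Between antibody-treated and untreated cells, over pair means, the median was -0.15 with 1 of 18 above 0 (all genes -0.11 and 20.6%). By t these genes ran from Unc45a, a myosin co-chaperone (-0.25), to Hsf4 (0.33). Hsf1 was not analysed here, and Hsf2 had signals of 6.58, 7.73 and 4.38 in SP anti-EpCAM, 5.31, 5.68 and 5.02 in non-SP anti-EpCAM, 5.71, 6.50 and 6.78 in SP untreated, and 5.32, 6.60 and 6.41 in non-SP untreated cells. Of the 14 genes of the cytosolic chaperonin TRiC and of prefoldin, none passed. Their medians were 0.01 between fractions (all genes -0.01) and -0.07 between treatments (all genes -0.11). The 3 ER chaperones left out of the set differed by 0.12 (Hspa5), 0.14 (Hsp90b1) and 0.06 (Dnajb9) between the fractions, and by 0.05, -0.11 and -0.17 between treatments. The 17 genes with the pair motif in their promoter window had a median of 0.04 between the fractions, against 0.03 for the 44 without it, and of -0.09 between treatments, against -0.10.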

How the data were processed

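Signals of 12 arrays were read from the table of log2 values that the authors deposited, summarised by RMA per the submitters' processing notes, from 200 ng of total RNA per array per the labels' protocols. The software version was not stated in the sources used here, nor was any later scaling. The platform annotation, dated 2016, gave 1 symbol to 34958 of 45101 probe sets, several to 932 and none to 9211, and 75 genes followed from the symbol rule, 46 of them with several probe sets. Members named in the text came mainly from the 3 highest and lowest by moderated t in each comparison. Further sources were a fixed set of inducible and constitutive chaperones, the 5 with the highest SD, and genes with groups that do not overlap. Of the first of these, Bag6 (-0.16) and Hspa1l (0.23, SP minus non-SP in untreated cells) are not described above. The genes, lists and tests were chosen with earlier results of these data known. No filter on level was applied, and 3 arrays per group limit the precision.

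Two-sided tests were run with the limma package 3.58.1 in R 4.3.3 (functions lmFit and eBayes), and p-values were adjusted by Benjamini-Hochberg over 18194 genes, with a threshold of 0.05. The 12-array fit used group means with 8 residual degrees of freedom. Same-numbered SP and non-SP arrays correlated over 0.1 in all 6 pairs, so the mean fraction difference used 6 within-pair differences, and the mean treatment difference used 6 pair means. This pairing comes from the data and the replicate numbers, and the labels do not state it. The script was tested on simulated data. Promoter sequences are from RefSeq (GRCm38.p6). Figures used Python 3.11.15, pandas 2.3.3 and matplotlib 3.10.9.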

Additional observations from a re-analysis of the deposited data

Results flagged for a closer look

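Members for which SP lay above non-SP in all 3 antibody-treated pairs and below it in all 3 untreated pairs, or the other way round, numbered 2 of 75, against 2.74% of all genes. Dnajb5 had an interaction of 0.61 on the log2 scale (0.25 in antibody-treated and -0.37 in untreated cells, SP minus non-SP; limma unadjusted p = 0.0255, adjusted p = 1.00), with opposite signs on its other probe sets. Dnajc24, a J protein of the diphthamide pathway, had an interaction of 0.25 (0.16 in antibody-treated and -0.10 in untreated cells; limma unadjusted p = 0.511, adjusted p = 1.00), and 0.43 on its other probe set. These p-values come from the fit of group means, which leaves out the pairs. With the replicate number as a block, the interaction of Dnajb5 had a limma unadjusted p of 0.0049 (adjusted p = 0.767). That of Dnajc24 had a limma unadjusted p of 0.101 (adjusted p = 0.767) with the block. Both genes were picked by the signs of their pairs, so none of these p-values is an independent test. Neither interaction passed the adjusted threshold, with or without the block.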

How the results depend on the processing

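No gene passed the adjusted threshold in any of the 7 comparisons under any alternative run, the fit with the replicate number as a block included, so that no call was gained or lost. For the named members 1008 alternative values kept their direction and 87 did not. The summary values were counts of calls and median differences between the members and all genes. Only the median differences were set against the spread between arrays. Of the summary values 356 kept their count or stayed within that spread, and 1 median difference did not. The difference between the median of the members and that of all genes in the interaction, 0.02, ranged from -0.025 to 0.10 when single arrays were left out, with the highest value without non-SP anti-EpCAM replicate 1. The replicate block in the 12-array fit left the differences as they were, and Dnajb5 had an adjusted p of 0.767 for the interaction with it in limma. The correlations within pairs are given with the results. Antibody-treated and untreated arrays of the same number were not paired, since their deviations correlated from -0.379 to -0.00541.

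With arrays centred on their medians, Hspa8 had a difference of 0.019 between the fractions over 6 pairs. The differences between treatments over pair means became 0.049 for Hspa1b, 0.058 for Hspa8, 0.047 for Hsp90aa1, 0.096 for Hspb1, 0.023 for Dnaja1, 0.066 for Bag3, 0.16 for Hspd1, 0.11 for Hspe1, 0.17 for Hspa9 and 0.14 for Bag1. The alternative added 0.17 to each of these differences, and the median of all genes became 0.056. With quantile normalization they became 0.012 for Hspb1, 0.060 for Hspd1, 0.013 for Hspe1, 0.084 for Hspa9 and 0.057 for Bag1, and the fraction difference of Bag1 became -0.013.

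The mean of all probe sets turned the fraction difference of Dnajc22 in antibody-treated cells to 0.090, the 6-pair differences of Hspa8 to 0.045 and Dnajb1 to -0.0074, and the interaction of Hspa4l to 0.097. It turned the treatment differences of Bag4 in non-SP to -0.091, Dnajc6 in SP to -0.011, and, over pair means, Hsp90aa1 to 0.00429 and Hsph1 to -0.15. Single other probe sets gave opposite 6-pair fraction differences for Dnajb1 (-0.041), Hspa8 (0.090 and 0.14), Hspe1 (-0.018), Hspa9 (-0.011 and -0.073), Dnaja3 (-0.10), Hsp90aa1 (-0.11) and Dnajc13 (-0.16). Within 1 treatment they did so for Dnajb5 (-0.11 and -0.11 in antibody-treated, 0.077 and 0.057 in untreated cells), Dnajc22 (0.30 in antibody-treated cells) and Hspa9 (-0.00259 in untreated cells). The interaction of Dnajb5 became -0.18 and -0.17 and that of Hspa4l 0.17, 0.26, 0.061 and 0.22. Treatment differences became -0.16 and -0.21 for Bag4, 0.36 for Dnajb5 and -0.036 for Dnajc6 in non-SP, and -0.082 for Hspa1b and -0.25 for Dnajc6 in SP. Over pair means they became -0.30 for Hsph1, 0.12 and 0.083 for Hspa9, 0.064 and 0.30 for Hsp90aa1 and -0.015 for Dnajc6. Without both arrays of antibody-treated pair 2, the fraction difference of Hspa1b in antibody-treated cells was -0.00315.

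Leaving out single arrays or pairs gave ranges that cross 0 for some members. In the 12-array fit they were -0.043 to 0.34 for Dnajb3 (treatment, non-SP) and -0.35 to 0.079 for Hspbp1 (fraction, antibody-treated). For the 6-pair fraction difference they were -0.16 to 0.18 for Hspa1a, -0.062 to 0.23 for Hspa1b, -0.0094 to 0.10 for Hsph1, -0.010 to 0.018 for Bag1, -0.030 to 0.023 for Hspa8 and -0.021 to 0.072 for Dnajb1. For the treatment difference over pair means they were -0.037 to 0.19 for Dnajc5g, -0.16 to 0.15 for Hsph1, -0.23 to 0.016 for Hspa1b, -0.22 to 0.048 for Hspa8, -0.26 to 0.19 for Hspb1, -0.095 to 0.051 for Hspd1, -0.093 to 0.018 for Bag1 and -0.13 to 0.14 for Hspa9. The causes were not tested.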
